A study of Sus scrofa with 2 samples.

Results

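Deeply covered CpG cytosines were examined in whole-genome bisulfite sequencing of longissimus dorsi, a back muscle, from Tibetan pigs. They were chosen by depth: a cytosine belonged to the set when both libraries listed it with 40 to 200 reads, on any sequence other than the mitochondrial genome and the X chromosome. The set held 13759 cytosines out of 7002043 nuclear cytosines listed in both libraries, and out of 6635816 when X was left out. Each library came from 1 female. The high-altitude animal ranged freely in the Tibetan highland, where the altitude averages 4000 m. The low-altitude animal received normal feed on the Chengdu plain, where it averages 500 m, and its line of Tibetan pigs had been raised in the lowland for generations. They are called the highland and the lowland library or pig. With 1 pig per group there was no replicate error, and altitude, feeding, descent and the individual animal cannot be told apart. All differences below are lowland minus highland, in percentage points of methylated reads, and a test between the libraries compares 2 libraries, not 2 altitudes.

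In mammals most CpG cytosines carry a methyl group, which bisulfite sequencing reads as an unconverted cytosine. Satellite and other tandem repeats, which are often placed near centromeres and chromosome ends, are usually methylated in somatic tissue. An assembly often holds fewer copies of such a repeat than the genome does. Reads from the missing copies then pile up on the copies that are present, and the level at a position becomes an average over copies that cannot be separated.

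The median depth of the set was 72 reads in the highland and 74 reads in the lowland library, against a median of 8 reads over all listed nuclear cytosines in each. The highland library listed 20763 cytosines with 40 to 200 reads, of which 66.3% also had 40 to 200 reads in the lowland library. Another 5826 had fewer than 40 reads there, 806 had more than 200 and 372 were not listed. Conversely, 5817 of the 20805 such cytosines of the lowland library had fewer than 40 reads in the highland library, 787 had more than 200 and 442 were not listed. High depth at a position was thus mostly shared by the libraries, which is a description of how the set was chosen.

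The excess of reads was local. Listed cytosines outside the set but within 50 bp of one of its members had a median of 30 reads in both libraries. The median was 16 and 15 reads at over 200 to 500 bp, 11 reads in both libraries at over 1000 to 5000 bp and 9 reads at over 10000 to 100000 bp. Mean methylation rose over the same distances, from 44.8% and 44.3% within 50 bp to 71.7% and 70.8% beyond 10000 bp. Among listed cytosines outside the set, depth thus fell and level rose with distance from the deep positions, on average. The set was not made of short stretches alone, as 3 of the largest clusters described below span 49.7 to 127 kb, and some dense clusters are highly methylated. Whether these stretches are annotated repeats was not analysed here, since no annotation of the files' assembly was used. Besides the depth, the spacing of the cytosines bears on the repeat nature of the largest stretches and is given below.

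Members of the set were far less methylated than shallower cytosines. Their mean level was 42.4% ± 24.5 (SD over 13759 cytosines) in the highland library and 41.8% ± 24.4 in the lowland library. The 184170 cytosines with 20 to 39 reads in each library had 70.4% ± 22.04 and 69.5% ± 21.8, and the 1478785 with 10 to 19 reads had 73.7% and 72.7%. The 2652 cytosines with more than 200 reads in each library were close to the set, at 41.7% and 41.6%. A level of 80% or more was found at 10.7% of the set and at 44.4% of cytosines with 20 to 39 reads in the highland library, and at 9.83% and 41.6% in the lowland library. The most frequent levels of the set lay between 20 and 40%, which held 32.8% and 32.1% of its cytosines. A listed cytosine had at least 1 methylated read at every depth, which is 2.5% of 40 reads, 5% of 20 reads and 10% of 10 reads, so lower levels could be listed at greater depth. Among cytosines at 20% or more in both libraries, 10325 of the set had mean levels of 51.6% and 51.0%, 175554 with 20 to 39 reads had 72.9% and 71.96%, and 1424102 with 10 to 19 reads had 75.6% and 74.5%.

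**Figure D1:**
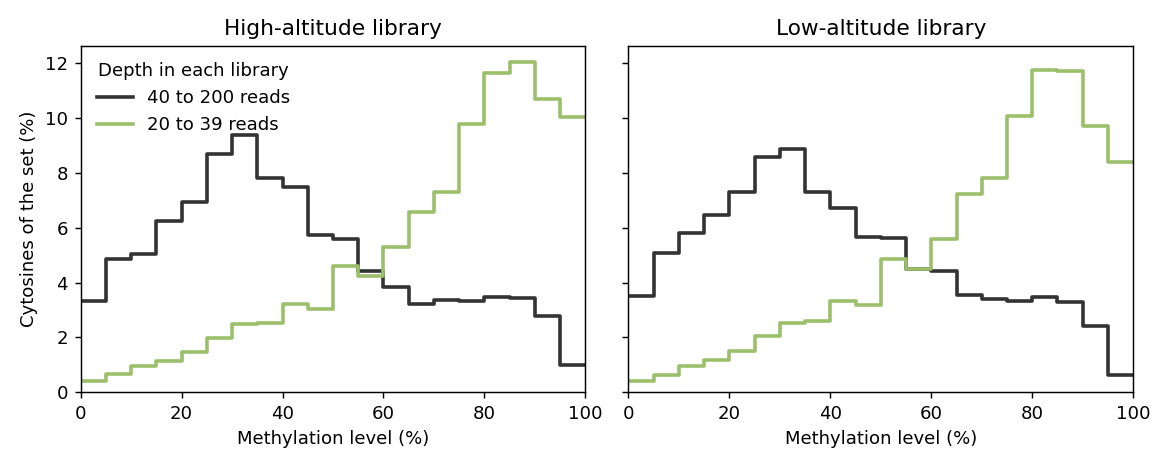
Share of cytosines (y axis, % of each set) by methylation level (x axis, %, steps of 5 points) in the highland (left) and the lowland library (right), for cytosines with 40 to 200 reads (dark) and 20 to 39 reads (green) in each library. The deep set peaks between 20 and 40%, whereas the shallower set peaks above 80%.

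The level fell across the lower bound of the depth range, was already low just below it, and varied by a few points within the range. Cytosines whose smaller depth was 40 to 44 reads had mean levels of 43.4% and 43.2%, and those just outside, at 35 to 39 reads, 48.0% and 47.3%. Those with 20 to 39 reads in each library had 70.4% and 69.5%, so the level did not change at the bound alone. At the upper bound, cytosines whose larger depth was over 180 to 200 reads had 44.7% and 44.8%, and those at over 200 to 220 reads 42.0% and 42.9%. By mean depth of both libraries, the level in the highland library was 43.8% at 40 to under 50 reads, 40.7% at 50 to under 75, 42.8% at 75 to under 100, 44.1% at 100 to under 150 and 42.1% at 150 to 200 reads. No order of level with depth was seen across these 5 classes.

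Levels of single cytosines were correlated between the pigs. The correlation between the libraries was 0.915 across the 13759 cytosines, which share clusters and libraries and are not independent. The SD of the difference was 10.1 points, whereas binomial counting at these depths gives 7.28 points, and the squared differences were on average 1.91 times those of counting. This ratio was 1.30 at 10 to 19 reads, 1.498 at 20 to 39 reads and 7.27 above 200 reads. The SD of the difference itself fell over these classes, from 18.4 to 15.1 and 7.74 points. Counting alone gives 15.6, 11.8 and 3.22 points there. Within the set the ratio was 1.53 at 40 to under 50 reads and 2.50 at 150 to 200 reads, at SDs of 11.5 and 8.10 points. Counting error shrinks with depth, so a larger ratio at greater depth does not mean a larger difference between the pigs.

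The strands of a CpG gave a spread within 1 library, which also exceeded counting error. At 1950 CpGs both cytosines belonged to the set, and their levels had a correlation of 0.919 in the highland and 0.921 in the lowland library. The SD of the strand difference was 10.05 and 9.77 points, about as large as the SD between the libraries, which was 9.82 points on the plus and 10.2 points on the minus strand of the same CpGs. The squared strand differences were 2.18 and 2.13 times those of counting, beside 1.91 between the pigs over all members. Strand differences had a correlation of 0.446 between the libraries, so a part of them recurred in both pigs. The library difference had a correlation of 0.457 between the strands, and of 0.152 at the 1635 CpGs outside the 2 clusters on chromosome 6 described below.

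The mean difference between the libraries was small and its sign depended on how cytosines were weighted. Averaged over cytosines it was −0.63 points with an SD of 10.1 points, and 7577 cytosines were lower and 6145 higher in the lowland library. Summed over reads, the level was 41.7% of 1138570 reads (95% Wilson interval 41.6 to 41.8) in the highland and 43.5% of 1176855 reads (43.4 to 43.6) in the lowland library, a difference of 1.84 points in the opposite direction. Here and below, summed reads are counted once per cytosine, so a read over several CpGs counts several times. The intervals treat these counts as independent and cover counting error only, so they may be too narrow. Among the 6197 cytosines whose smaller depth was at least 0.8 times the larger, the difference was −1.76 points over cytosines and −1.80 points over reads. The 3607 cytosines with a lowland depth under 0.8 times the highland depth had a mean difference of −2.07 points, and the 3955 with a highland depth under 0.8 times the lowland depth had 2.44 points. Most cytosines of the 2 clusters on chromosome 6 were in the latter class. Without these clusters, which were picked for their rise, the mean difference of the whole set was −1.89 points over cytosines and 0.62 points over reads.

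By chromosome, the mean difference over cytosines was negative on 13 of 18 autosomes and positive on 5. Over cytosines the largest falls were on chromosome 18, with −2.79 points over 648 cytosines, and on chromosome 12, with −2.74 points over 856. The rises over cytosines were on chromosome 6, with 2.90 points over 3122 cytosines, and on chromosomes 5, 8, 2 and 13, with 0.96, 0.81, 0.64 and 0.27 points. Over reads 11 autosomes were lower and 7 higher, and 6 changed sign. The largest falls were then −3.92 points on chromosome 2 and −3.34 on chromosome 10, chromosome 13 had −1.28, and chromosomes 9, 16, 14 and 7 had 1.92, 1.70, 1.29 and 0.35 points. Chromosome 6 had 4.64 points. The set was spread unevenly over the chromosomes. Chromosome 6 held 22.7% of its cytosines and chromosome 3 held 13.8%, which were 0.797% and 0.526% of the shared cytosines on these chromosomes. Chromosome 8 had the smallest share of the set among autosomes, with 112 cytosines (0.0253% of its shared cytosines). Unplaced scaffolds held 49 cytosines, and the Y chromosome, on which both female libraries listed 111 cytosines, held 0. Levels ranged from 32.2% on chromosome 15 to 75.9% on chromosome 11 in the highland library, and chromosome 9, at 70.2%, was also above the mean of the set.

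On several chromosomes most of the set lay in a single dense cluster. Joined across gaps of at most 10 kb, the members formed 1066 clusters, of which 547 were single cytosines, 398 held 2 to 9 and 121 held at least 10. The 121 clusters held 86.5% of the set and the 20 clusters of at least 100 cytosines held 64.5%. The 6 largest held 41.1%. A single cluster gave 95.8% of the cytosines on chromosome 18, 78.6% on chromosome 12, 77.9% on chromosome 9 and 63.8% on chromosome 3. On chromosome 13 the largest cluster held only 6% of 200 cytosines, which were scattered over 94 clusters. The largest cluster held 11.3, 15.6, 20.5, 21.9 and 22.6% on chromosomes 2, 7, 8, 10 and 5.

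A few chromosome ends were rich in the set. Of its autosomal cytosines, 25.1% lay within 1000 kb of the first base or of the last position listed on a chromosome, against 1.41% of all shared autosomal cytosines. Of the 3435 cytosines there, 93.9% lay at 5 of the 36 ends: 1542 at the start of chromosome 6, 621 at the start of 18, 530 at the end of 17, 369 at the start of 1 and 162 at the end of 10. No member lay at 17 ends. Within 100 kb the shares were 4.10% and 0.164%. Members within 500 kb of an end had mean levels of 37.4% and 35.4%, and those farther away 43.3% and 42.9%. Within 1000 kb, a range that takes in 2 rising clusters of chromosome 6 described below, they had 37.0% and 40.03%. Reads of the lowland library relative to the highland library were 0.857 within 500 kb of an end and 1.07 farther away, and 1.13 and 0.9999 with the bound at 1000 kb, so depth as well as level moved with position, and the part of depth in the level was not tested.

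Among the 121 clusters of at least 10 cytosines, the level over reads ranged from 8.35 to 88.6% in the highland library with a median of 38.1%. The levels of both libraries had a correlation of 0.980 across these clusters. Differences between clusters accounted for 48.5% and 49.8% of the variance of the single levels, and cytosines of the same cluster still had an SD of 17.6 and 17.3 points around their cluster mean. In 90 clusters the level over reads was lower in the lowland library and in 31 it was higher, with a median difference of −1.84 points, and 98 of the 121 differed by less than 5 points. The ratio of lowland to highland reads ranged from 0.411 to 2.07. Lowland reads were under 0.8 times highland reads in 20 clusters, and highland reads under 0.8 times lowland reads in 41. Across clusters the log2 read ratio and the level difference had a correlation of 0.086, and of −0.015 without the 2 clusters on chromosome 6.

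**Figure D2:**
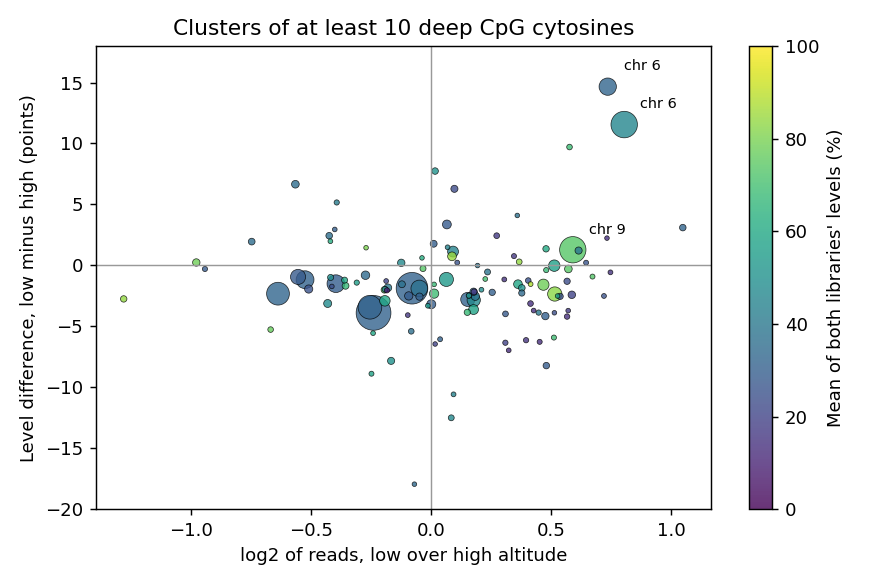
Level difference (y axis, points, lowland minus highland, over reads) against the log2 ratio of reads of the lowland over the highland library (x axis) for the 121 clusters of at least 10 cytosines. Point area grows with the number of cytosines and colour gives the level. Most clusters lie within 5 points of 0, and the clusters on chromosome 6 at 14.7 and 11.6 points stand apart among the large ones.

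The largest cluster, on chromosome 6 from 143336212 to 143462936, held 1468 cytosines of the set over 127 kb. Its level over reads was 33.5% of 143507 reads (95% Wilson interval 33.3 to 33.8) in the highland and 29.6% of 121481 reads (29.4 to 29.9) in the lowland library, a difference of −3.89 points, and 1005 of its cytosines were lower. The second, on chromosome 3 from 142455889 to 142552231, held 1210 cytosines with levels of 32.5% and 30.7%. The fifth, on chromosome 12 from 48899745 to 48949422, held 673 cytosines with 33.3% and 29.8%. These 3 clusters lay on 3 chromosomes but were alike in level. This level was not particular to them. The cluster on chromosome 18 from 225452 to 395384 had 34.0% and 31.6%. That on chromosome 15 from 155337930 to 155499740 had 32.1% and 31.0%, and that on chromosome 1 from 1053 to 173978 had 30.3% and 28.8%. Other large clusters differed, such as that on chromosome 9 from 40843958 to 40855710, with 72.9% and 74.2%. The 3 clusters were also alike in the density of shared cytosines, at 34.3, 33.9 and 35.03 per kb.

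The same 3 clusters had a common spacing of their cytosines. Distances between cytosines of the same strand were counted from 20 to 1200 bp, and the 8 most frequent were listed for each cluster. In the largest cluster a distance of 27 bp occurred 222 times, 20.6 times the mean of all distances, a distance of 73 bp 218 times, 44 bp 212 times and 100 bp 163 times. In the chromosome 3 cluster 27 bp occurred 213 times and 73 bp 172 times, and in the chromosome 12 cluster 27 bp occurred 110 times, 44 bp 104 times and 73 bp 93 times. The distances of 27, 56, 73 and 100 bp were among the 8 most frequent in all 3 clusters, the rule by which these 4 were picked. No other of the 38 clusters of at least 50 cytosines had more than 2 of them. That contrast rests on a list taken from the 3 clusters themselves, so it is description only. The distances of 27 and 73 bp add up to 100 bp, as do 44 and 56 bp. Among cytosines with 20 to 39 reads outside the spans of these clusters, 27 bp was 7.27 and 73 bp 4.09 times the mean, so the spacing was also present at shallower positions elsewhere. In all other members of the deep set 27 and 73 bp were 2.42 and 1.63 times the mean. For 56 and 100 bp the values were 5.13 and 3.10 at those shallower positions and 2.63 and 3.19 in all other members.

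The level followed this spacing little. Over the 4 shared distances and 3 clusters the correlation of level between cytosines that distance apart ran from −0.36 to 0.22 in the highland and from −0.27 to 0.19 in the lowland library. Cytosines 100 bp apart in the largest cluster had a correlation of level of −0.083 in the highland and −0.024 in the lowland library over 163 pairs, and those 27 bp apart −0.080 and −0.15 over 222 pairs. In the chromosome 3 cluster the values at 100 bp were 0.081 and 0.17 over 83 pairs. At 248 bp, also among its 8 most frequent distances, they were 0.55 and 0.47 over 95 pairs. Levels of single cytosines in the largest cluster ran from 0.625 to 76.8% in the highland library and from 0.752 to 74.0% in the lowland library.

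**Figure D3:**
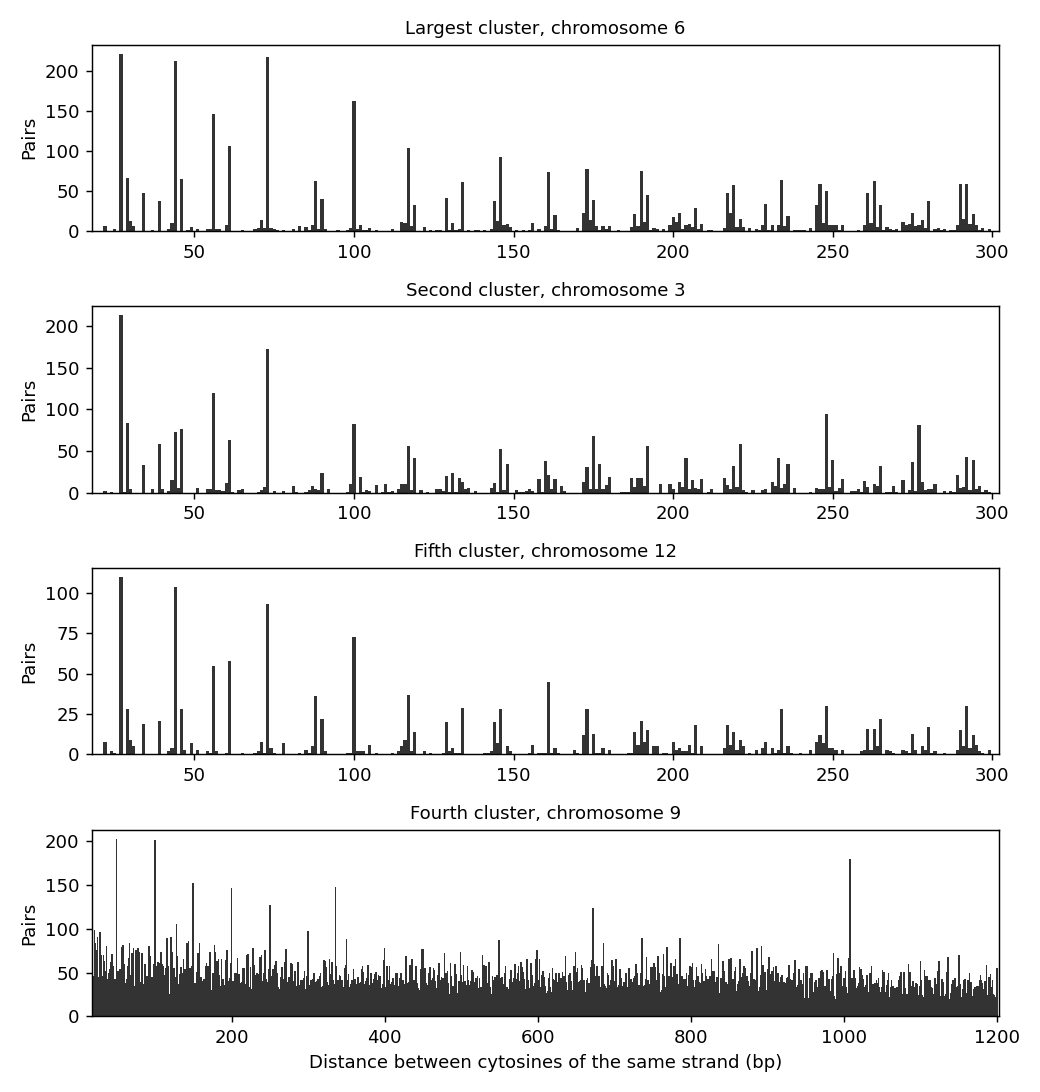
Number of pairs of same-strand cytosines (y axis) at each distance in bp (x axis) in the largest cluster, the second and the fifth (20 to 300 bp) and in the fourth (20 to 1200 bp). The first 3 panels share peaks at 27, 56, 73 and 100 bp, and the last has peaks at 50, 100, 336 and 1008 bp.

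The fourth cluster, on chromosome 9 from 40843958 to 40855710, was dense and highly methylated. It held 836 cytosines over 11.8 kb, 66.2% of the shared cytosines listed in that span, with another 285 above 200 reads in a library. Its level over reads was 72.9% of 68211 reads in the highland and 74.2% of 102689 reads in the lowland library, a rise of 1.28 points, whereas the mean over its cytosines fell from 75.4% to 72.9%, by 2.48 points, and 529 of its cytosines were lower. Along the cluster 2 stretches were seen, divided at 3 kb from its start, a point chosen after the values were seen. In the first stretch, 531 cytosines had median depths of 62 and 130 reads and levels over reads of 83.3% and 81.8%. In the rest, 305 cytosines had median depths of 111 and 101 reads and levels of 62.6% and 57.8%. Each stretch was thus lower in the lowland library. The higher level over reads of the whole cluster went with the larger share of lowland reads in the first, more methylated stretch.

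Methylation in the second stretch of the chromosome 9 cluster recurred every 336 bp in both pigs. Cytosines of the same strand 336 bp apart had a correlation of level of 0.88 in the highland and 0.86 in the lowland library over 101 pairs, and those 1008 bp apart had 0.89 and 0.86 over 128 pairs. Of its 305 cytosines, 285 shared their strand and their place in a 336 bp unit with another, at 28 places. Cytosines at the same place differed with an SD of 6.14 points in the highland and 6.96 points in the lowland library, whereas the SD over these 285 cytosines was 17.2 and 18.5 points. Periods of 300, 350 and 400 bp, taken for comparison, gave an SD at the same place of 17.5, 20.3 and 20.7 points in the highland library, over the 94, 108 and 111 cytosines that then shared a place. In the first stretch the correlation at 336 bp was 0.16 and 0.29 over 47 pairs. There 50 bp was the most frequent distance, with 203 pairs, all of them in the first stretch, and correlations of 0.49 and 0.53.

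Levels differed strongly between places within the 336 bp unit. Places are counted from the first cytosine of the cluster. At place 199 on the plus strand, 15 cytosines had 27.8% ± 5.27 (SD over cytosines) in the highland and 25.9% ± 6.14 in the lowland library. At place 200 on the minus strand, the partner of the same CpG, 10 cytosines had 28.2% ± 5.14 and 24.6% ± 4.60. Only 12 bp away, at place 212 on the minus strand, 12 cytosines had 54.1% ± 4.90 and 44.7% ± 4.26. At place 328 on the minus strand, the highest of all in the highland library, 12 cytosines had 83.9% ± 5.19 and 81.2% ± 4.96. Place 199 on the plus strand was the lowest in the highland library among places with at least 5 cytosines. As places 199 and 328 are the extremes, their ranges there, 20 to 38.8% and 72.5 to 91.8%, are description only. Over the 26 places with at least 5 cytosines the means of both libraries had a correlation of 0.984, and 22 of them were lower in the lowland library. The largest falls were at place 177 on the minus strand, from 62.7% ± 5.16 to 52.7% ± 7.89 over 10 cytosines, and at place 212.

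**Figure D4:**
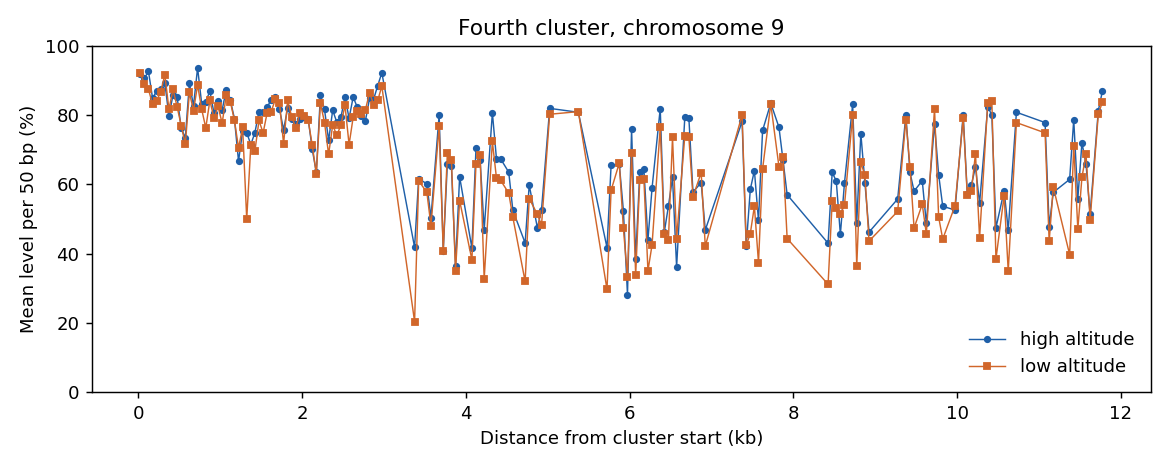
Mean methylation level per 50 bp (y axis, %) against the distance from the start of the chromosome 9 cluster (x axis, kb), in the highland (blue) and lowland library (orange). The level stays mostly between 70 and 95% in the first 3 kb and then swings between high and low values in both libraries.

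A further cluster of high level on chromosome 11, from 37942641 to 37957161, held 234 cytosines with 83.7% and 81.3%. Its most frequent distance was also 50 bp, with 74 pairs, 22.3 times the mean, and 100 bp was among its 8 most frequent. The sixth cluster, on chromosome 18 from 225452 to 395384, held 621 cytosines with 34.0% and 31.6% and had the lower depth in the lowland library, with medians of 101 and 64 reads. Its most frequent distance was 20 bp, with only 17 pairs. None of its cytosines was called in the test below.

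Both clusters with the largest rise lay in the first Mb of chromosome 6. The first, from 949666 to 958824, held 352 cytosines and had 24.8% of 25072 reads (95% Wilson interval 24.3 to 25.3) in the highland and 39.4% of 41754 reads (38.98 to 39.9) in the lowland library, a difference of 14.7 points, with 330 of its cytosines higher. The second, from 857649 to 875975, was the third largest of all clusters, with 844 cytosines, 40.3% of 63073 reads (39.9 to 40.6) and 51.8% of 110158 reads (51.5 to 52.1), a difference of 11.6 points, and 763 were higher. Between them lay 73.7 kb. The rise was seen in most of the densely filled steps. In steps of 500 bp with at least 5 members, the mean level was higher in the lowland library in all 8 steps of the former and in 23 of 24 steps of the latter. These 8 steps lay beyond 4.5 kb from the cluster start. Steps with fewer members were mixed, with 2 of 4 (11 cytosines) and 4 of 6 (14 cytosines) higher. Both clusters were picked for their rise, so the counts of cytosines and steps are no separate support for it.

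Plus and minus strands gave 14.9 points each in the former and 11.9 and 11.1 points in the latter. These values too are part of those by which the clusters were picked. Depth moved with this rise. Median depths were 67 and 116.5 reads in the former and 67 and 132 reads in the latter cluster, so the lowland library had 1.67 and 1.75 times the reads of the highland library. At the 50 cytosines of the former whose smaller depth was at least 0.8 times the larger, the mean difference was 11.003 ± 13.0 points (SD over cytosines). It was 14.5 ± 9.65 where the highland depth was 0.5 to under 0.8 times the lowland depth and 19.2 ± 7.27 where it was under 0.5 times. In the latter it was 7.20 ± 12.9 points over 23 cytosines of such near-equal depth, 12.3 ± 8.79 at 0.5 to under 0.8 times and 10.2 ± 8.43 under 0.5 times. Over reads, the rise at near-equal depth was 8.52 points in the former and 3.83 points in the latter, against 14.7 and 11.6 points over all their cytosines. Cytosines in these spans outside the depth range of the set also rose. Those below 40 reads in a library differed by 8.93 and 10.9 points, and those above 200 reads by 13.8 and 9.77 points. Within 20 kb outside the former cluster, 17 listed cytosines had 37.1% and 53.2%, a difference of 16.1 ± 19.2 points. Within 20 kb outside the latter, 255 listed cytosines of ordinary depth had 69.9% and 72.0%, a difference of 2.08 ± 20.7 points. The part of the unequal depth in the rise was not tested.

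**Figure D5:**
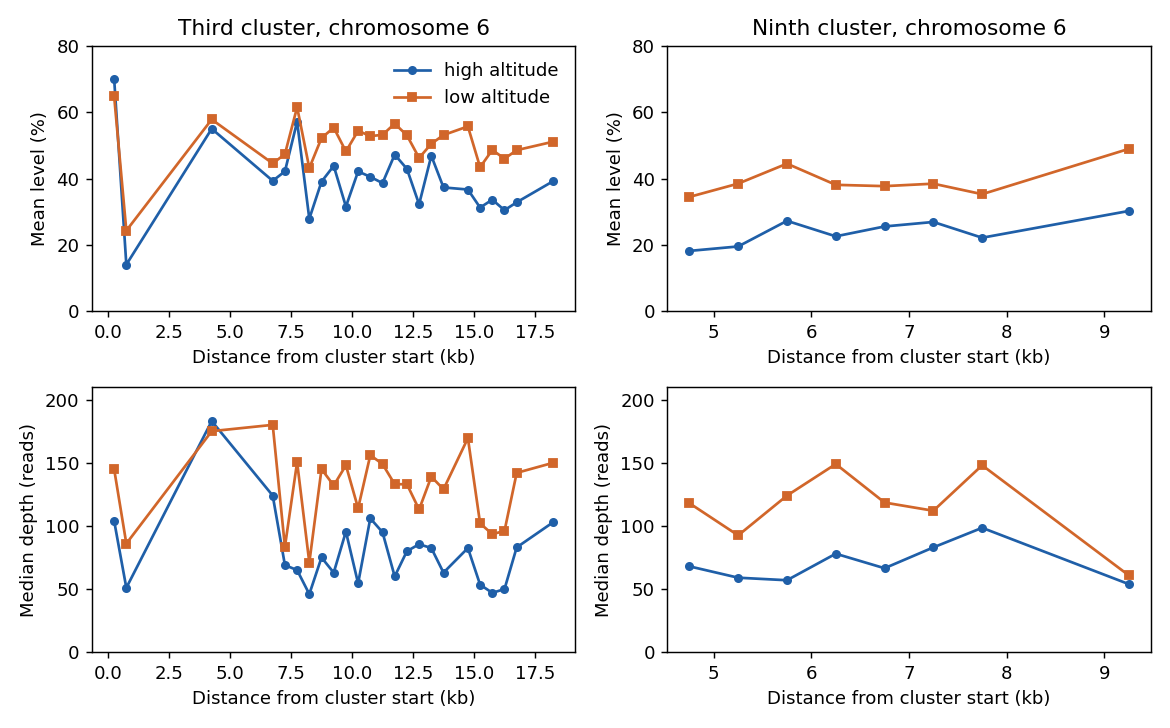
Mean methylation level (top, %) and median depth (bottom, reads) of cytosines with 40 to 200 reads in steps of 500 bp with at least 5 members, against the distance from the cluster start (kb), for the third cluster (left) and the ninth cluster (right), both on chromosome 6. The lowland library (orange) lies above the highland library (blue) in level in all 8 steps on the right and 23 of 24 on the left, and above it in depth in nearly all. Both clusters were picked for their rise.

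Other rises and all large falls were in smaller clusters. On chromosome 8, from 77334156 to 77334753, 23 cytosines had 63.7% and 73.4%, a difference of 9.71 points with 1.49 times the reads in the lowland library. On chromosome 2, from 9828419 to 9861234, 37 cytosines had 46.9% and 54.6% at equal median depths of 68 reads. The largest fall was on chromosome 3, from 32703594 to 32703734, where 10 cytosines within 141 bp had 42.7% of 633 reads (38.9 to 46.5) and 24.7% of 603 reads (21.4 to 28.3), a difference of −17.9 points. All 10 were lower, with ranges of 34.3 to 48.4% and 18.3 to 34.0%, at median depths of 62.5 and 61 reads. A single read can cross several of these cytosines, so the summed reads are not independent and the intervals may be too narrow. The cluster was picked for its fall, so these ranges are no separate support for it. Of its 10 cytosines, 0 were called in the test below. On chromosome 3 from 142998154 to 143022691, 27 cytosines had 52.8% and 40.3%, on chromosome 10 from 22939847 to 22943292, 13 had 49.2% and 38.7%, and on chromosome 1 from 158061556 to 158084234, 15 had 62.3% and 53.4%.

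Ranked by the reads of both libraries together, the lowest cluster, on chromosome 16 from 29282922 to 29292427, had 8.35% of 1748 reads and 6.31% of 1538 reads over 18 cytosines. The next by this rank, on chromosome 2 from 11644281 to 11666371, had 16.2% and 9.20% over 12, and several clusters were lower than it in the highland library. The highest, on chromosome 10 from 75816872 to 75817100, had 88.6% of 1079 reads and 87.1% of 1438 reads over 12 cytosines, and that on chromosome 14 from 65670674 to 65672041 had 84.2% and 85.0% over 78.

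The correlation of level between neighbours up to 1 kb apart was higher for members than for shallower cytosines. Same-strand members up to 10 bp apart had a correlation of level of 0.84 in the highland and 0.78 in the lowland library over 3250 pairs, and those over 200 to 1000 bp apart 0.73 and 0.67 over 106105 pairs. Cytosines with 20 to 39 reads had 0.63 and 0.64 up to 10 bp and 0.47 and 0.48 over 200 to 1000 bp. Over 1000 to 10000 bp the values were 0.52 and 0.50 for members and 0.49 and 0.50 for shallower cytosines. Most pairs of the deep set come from a few clusters, and this contrast has no test. Counting error, which lowers a correlation, was also larger at 20 to 39 reads. Counting there gives an SD of the library difference of 11.8 points, against 7.28 points for members. The part of depth in this contrast was not tested. The difference between the libraries had, over all members, correlations of 0.65 up to 10 bp, 0.46 over 200 to 1000 bp and 0.39 over 1000 to 10000 bp. Without the 2 clusters on chromosome 6 its correlation was 0.36 up to 10 bp, 0.19 over 10 to 50 bp, 0.061 over 50 to 200 bp and 0.025 over 200 to 1000 bp, beside the 0.27, 0.18, 0.056 and 0.041 of cytosines with 20 to 39 reads.

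Per cytosine, a two-sided Fisher’s exact test was run on all 2231948 nuclear cytosines that had 10 or more reads in each library, with Benjamini-Hochberg adjustment. To be called, a cytosine needed an adjusted p below 0.05 and levels at least 25 points apart. Of the 13759 members, 119 were called, or 0.865%, against 0.215% of all tested cytosines. An adjusted p below 0.05 at any difference was reached by 133 members, or 0.967%, against 0.234% of all. Called lower were 39 members (background 0.118%) and called higher 80 (background 0.0974%). Power grows with depth, and cytosines with 20 to 39 reads had a called share of 0.672%. The 2 clusters on chromosome 6 held 48 of the 80 members called higher, 4.01% of their 1196 cytosines, and no call in the other direction. They were picked for their rise in these same counts, so their calls and the counts without them are description only. Outside them 71 of 12563 members were called, 0.565%, with 39 lower and 32 higher, a share near that of cytosines with 20 to 39 reads. The calls lay in 47 clusters, and 92 of the 121 clusters of at least 10 cytosines had none.

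The 4 called members with the largest fall stood on chromosomes 17, 1 and 14. At 69676404 on the plus strand of chromosome 17, 51 of 68 reads were methylated in the highland and 4 of 58 in the lowland library, 75% against 6.90% (Fisher's exact test, adjusted p = 1.1e-10). Its partner on the other strand had 85.7% of 70 reads and 62.5% of 8 reads, and the 11 listed cytosines within 100 bp had mean levels of 66.4% and 58.9%. At 100579299 on the minus strand of chromosome 1, 82 of 112 and 6 of 43 reads were methylated, 73.2% against 14.0%, and its partner on the other strand had 71.4% of 98 reads and 16.7% of 12 reads. At 101055856 on the minus strand of chromosome 14 the levels were 84.4% and 36.2%, with no listed cytosine within 100 bp. At 158083998 on the plus strand of chromosome 1, within the cluster of fall named above, they were 66.3% of 190 reads and 20.4% of 152 reads, while its 4 neighbours had 51.8% and 52.4%.

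The 4 with the largest rise were on chromosomes 14, 7 and 8. At 65670991 on the plus strand of chromosome 14, 13 of 48 and 45 of 47 reads were methylated, 27.1% against 95.7% (Fisher's exact test, adjusted p = 2.9e-08), and the partner cytosine rose alike, from 27.3% to 85.3%. This CpG lay in the highly methylated cluster on that chromosome, and its 29 neighbours within 100 bp had 83.9% and 86.0%. At 28707025 on the minus strand of chromosome 7, 10 of 117 and 95 of 150 reads were methylated, 8.55% against 63.3%, while its 5 neighbours had 50.1% and 42.5%. At 23801778 on the plus strand of chromosome 14 the levels were 16.3% and 70.5%, and at 70930305 on the plus strand of chromosome 8 they were 4.84% and 58.1%. Of the 6 named cytosines with listed neighbours, 3 had neighbours whose mean moved by less than 3 points or in the opposite direction. Sequence variants at these positions were not tested.

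Windows of 1 kb gave few calls. The same exact test was run on the summed reads of 462691 nuclear windows that held 5 or more CpGs, each with 5 or more reads per library. Windows were called at a difference of at least 20 points. Of 2014 tested windows that held a member, 13 were called, or 0.645%, against 0.494% of all windows, although these windows had median sums of 432.5 and 409.5 reads. Of the 13, 8 were lower (background 0.306%) and 5 higher (background 0.188%). The largest fall was on chromosome 3 from 143019001 to 143020000, with 50.7% of 144 and 17.9% of 196 reads over 7 CpGs, and another call lay in the neighbouring window. The largest rise was on chromosome 6 from 148223001 to 148224000, with 47.9% of 121 and 85.2% of 142 reads. Of the 13 windows, 10 held a single member. None of the 24 tested windows in the 2 rising clusters of chromosome 6 reached 20 points. Their median difference was 11.5 points, and 18 of them were higher with an adjusted p of Fisher's exact test below 0.05. These 2 clusters had been picked for their rise. At that threshold and any difference, 199 of the 2014 windows with a member passed in either direction. Outside the 2 clusters 179 of 1990 did. The share over all windows was not counted at this criterion.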

How the data were processed

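Per the labels, muscle DNA was mixed with lambda DNA, fragmented, given methylated adapters, bisulfite-converted and sequenced by Illumina. The submitters' processing notes name Bismark 0.12.5. Not given in the sources used here were the build, filters and duplicate handling. Each deposited list gives counts of methylated and unmethylated reads per cytosine, per the file headers. It also gives the authors' methylation level, a fraction. Its p-value columns, raw and corrected, are the authors' too. From the values, the authors' lists hold CpG cytosines with a corrected p-value below 0.05, so levels describe listed CpGs, and CpGs with no methylated read are not among them. Counted once per cytosine, the highland library held 99955761 reads at 10441737 nuclear cytosines, the lowland library 95363149 reads at 10104425.

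Levels were computed from the counts. Members, lists and named regions were chosen with earlier results of these data known. Named were the 6 largest clusters and, among clusters of at least 10 members, the 4 largest rises and 4 largest falls over reads, the 2 highest and 2 lowest levels, and the 4 largest rises and falls among called members. The chromosome 11 cluster, the 3 kb division, the 336 bp unit, its places and the named windows were chosen after their values were seen. So were the 3 clusters of common spacing and their 4 shared distances. Tests used Fisher's exact test with Benjamini-Hochberg adjustment over all tested cytosines or windows and were tested on simulated data (Python 3.11.15, numpy 2.4.6, numba 0.67.0). Alternatives covered depth range, weighting, strands, gaps and thresholds. Reads without molecular identifiers may be copies, and a read over several CpGs is counted at each. Intervals of summed reads thus cover counting error only and may be too narrow, and p-values of windows may be too small. Positions follow the deposited lists. On 17 of 18 autosomes some exceed the end of the final gene in the Sscrofa11.1 table, so no gene is named, and no genome sequence was used.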

Additional observations from a re-analysis of the deposited data

How the results depend on the processing

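No paired analysis was possible because each group has a single library. The mean difference over members was −0.63 points. It reversed to 1.84 over reads and, without the 2 rising clusters of chromosome 6 (an alternative chosen after seeing the data), to 0.62 over reads. It moved to −0.79 at 60 to 200 reads, −1.002 at 40 to 100 reads, −0.43 as a mean over clusters and −0.25 without the largest cluster. With both strands summed it was −0.18, taken only over the 1950 CpGs whose cytosines both belong to the set. It was −1.76 where the smaller depth was at least 0.8 times the larger (−1.80 over reads, added later) and −1.89 over cytosines without the 2 rising clusters. It was −0.73 at 30 to 200 reads, −0.63 with the deposited level and −0.64 on numbered autosomes alone. Of the 119 called members, the count was 76 when cytosines of at least 5 reads were tested and 261 at 40 reads, where fewer were tested and adjusted. It was 33 at a difference of 40 points, 16 with Bonferroni adjustment and 71 without the 2 rising clusters. Summed strands gave 114 called CpGs and a difference of 15 points gave 132 members. The 1066 clusters became 2187 at gaps of 1 kb and 829 at 50 kb. Of the 13 called windows, 2 reached 30 points, and 10 were called when CpGs needed 10 reads. Over 68 alternatives for 17 named clusters, 46 stayed within counting error and 5 reversed. The other 17 moved beyond it to a smaller or larger difference of the same sign. On chromosome 9 the rise of 1.28 points reversed to −2.48 as a mean over cytosines, −1.14 at 40 to 100 reads and −3.86 at near-equal depth. The highest cluster on chromosome 10 reversed from −1.54 to 0.86 at 60 to 200 reads and 1.02 at near-equal depth. Of the 8 named cytosines, those at 101055856 and 23801778 on chromosome 14 missed the threshold with Bonferroni adjustment, with adjusted p of the exact test of 1 and 0.086, and the other alternatives kept all 8. Where no construction is named, the cause was not tested.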
